A study of Mus musculus with 8 samples.

Results

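Voltage-gated potassium channels of the Kv1 family and their beta subunits were followed in 2 populations of mouse dorsal root ganglion neurons, which carry touch, itch, temperature and pain signals to the spinal cord. The members were 7 genes picked by symbol from a count table of 43372 symbols. Of these, 5 encode pore-forming alpha subunits (Kcna1, Kcna2, Kcna3, Kcna4 and Kcna6) and 2 encode cytoplasmic beta subunits (Kcnab1 and Kcnab2).

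A Kv1 channel is a tetramer of alpha subunits, which may be alike or different. The channels open at small depolarizations and oppose repetitive firing. Kcna1 and Kcna2 encode Kv1.1 and Kv1.2, which in myelinated axons cluster beside the nodes of Ranvier, under the myelin. Kcna4 encodes Kv1.4, whose N-terminal domain closes the open channel quickly (A-type inactivation) and which is known from small-diameter sensory neurons. Kcna6 encodes Kv1.6, and Kcna3 encodes Kv1.3, best known from T cells. The Kvβ1 protein of Kcnab1 can add fast inactivation to Kv1 channels, and the Kvβ2 protein of Kcnab2 is a common axonal partner that aids their delivery.

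RNA was sequenced from hand-picked fluorescent neurons, in 4 libraries from Sst-IRES-Cre mice (Ssttm2.1(cre)Zjh/J) and 4 from Trpv1-IRES-Cre mice (Trpv1tm1(cre)Bbm/J). All mice were C57Bl/6, of both sexes, and 3 to 5 weeks old. At postnatal day 2 all received a Cre-dependent reporter virus into the peritoneum, AAV9-CAG-FLEX-eGFP-WPRE or its tdTomato version, so the picked cells were those that the virus had reached and in which Cre was active after the injection. Each pool held 150 to 250 cells per mouse, picked after 30 min of collagenase and dispase. A library is therefore the mean of a pool, in which fewer cells of a type and less RNA per cell cannot be told apart. The libraries are called Sst pools and Trpv1 pools here, after their Cre line.

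Totals lay between 9021125 and 12153109 counts for the Sst pools, and between 7419027 and 9568508 for the Trpv1 pools. All 9 sensory neuron markers passed the filter on low counts, with a summed level of 5983 to 6701 CPM (counts scaled to a fixed library total) in the Sst pools and 4093 to 4735 CPM in the Trpv1 pools. The gap in this sum came mainly from Snap25, at 4052 ± 372 CPM in the Sst pools against 2000 ± 271 CPM in the Trpv1 pools (SD, n = 4 each), and the median log2 fold change of the list was 0.09, with Snap25 called higher and Scn9a lower. Neither driver gene differed past the threshold: Sst was at 198 ± 106 CPM in the Sst pools against 94.2 ± 47.4 CPM in the Trpv1 pools (SD, n = 4 each; adjusted p = 0.153, edgeR), and Trpv1 at 101 ± 69.2 CPM in the Sst pools against 195 ± 77.9 CPM in the Trpv1 pools (adjusted p = 0.204, edgeR). Sst pool 4 had the lowest Kcna1, Kcna2, Kcna4 and Kcnab2 and the highest Kcna6 of the Sst pools. Pituitary hormone transcripts summed to 456 CPM in Sst pool 2 and to 1633 to 1728 CPM in Trpv1 pools 1 to 3, and to at most 3.88 CPM in the other pools. Y-linked counts were found in Trpv1 pools 1 and 2, and Xist counts in the other 6 pools.

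The alpha genes are alike in sequence, so a stretch that the family shares is shown here with the bases at which its members differ. The stretches run from the pore helix through the selectivity filter, which lets potassium pass. They are 66 bases of the coding strand in the GENCODE M21 transcripts (build GRCm38), 5′ to 3′, and the capitals mark the 18 bases that encode the filter.
Kcna1: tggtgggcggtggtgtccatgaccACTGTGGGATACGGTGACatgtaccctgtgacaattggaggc
Kcna2: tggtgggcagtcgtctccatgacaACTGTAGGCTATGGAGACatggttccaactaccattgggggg
Kcna3: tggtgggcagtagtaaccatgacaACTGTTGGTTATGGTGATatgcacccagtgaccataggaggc
Kcna4: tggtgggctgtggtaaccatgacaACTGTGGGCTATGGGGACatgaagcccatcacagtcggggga
Kcna6: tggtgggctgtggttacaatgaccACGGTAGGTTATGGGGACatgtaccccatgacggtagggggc
The 10 pairs differed at 12 to 19 of the 66 bases, and at 2 to 5 of the 18 filter bases. Kcna4 and Kcna6 were the closest pair. The second codon after the filter was tac in Kcna1 and Kcna6, gtt in Kcna2, cac in Kcna3 and aag in Kcna4. It encodes the residue known to set how strongly external tetraethylammonium blocks each channel. No member shared a 50-base word with another member over its exons.

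Kcna1 and Kcna2 were the 2 members that passed the test, both higher in the Sst pools. Kcna1 lies on the minus strand of chromosome 6 (GRCm38, 126640397 to 126646384). It stood at 452, 417, 416 and 171 CPM in Sst pools 1 to 4, against 65.9, 77.9, 97.7 and 37.3 CPM in Trpv1 pools 1 to 4. Every Sst pool was above every Trpv1 pool, although Sst pool 4 was far below the other Sst pools. Kcna1 averaged 364 ± 130 CPM in the Sst pools against 69.7 ± 25.3 CPM in the Trpv1 pools (SD, n = 4 each). The difference was 5.22-fold (log2 fold change 2.38, SE 0.326, adjusted p = 0.000323 by edgeR's quasi-likelihood F test with Benjamini-Hochberg adjustment over 11828 tested genes). Kcna1 ranked 57 among these genes by p, and it was called in all 18 alternatives.

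Kcna2 lies on the plus strand of chromosome 3 (107101146 to 107115005), near Kcna3. It stood at 244, 225, 319 and 82 CPM in Sst pools 1 to 4, against 48.5, 74.4, 106 and 48.1 CPM in Trpv1 pools 1 to 4. The groups overlapped in 1 place, where Sst pool 4 was below Trpv1 pool 3. Kcna2 averaged 217 ± 99 CPM in the Sst pools against 69.2 ± 27.3 CPM in the Trpv1 pools (SD, n = 4 each), a 3.14-fold difference (log2 fold change 1.65, SE 0.362, adjusted p = 0.0143, edgeR). The call was lost without Sst pool 3 (adjusted p = 0.0637, edgeR), without Trpv1 pool 1 (0.0581) and without Trpv1 pool 4 (0.0504), and it was also lost when the presence of Xist counts was a term in the fit (adjusted p = 0.13, edgeR) and among the 6 pools with Xist counts (log2 fold change 1.52, adjusted p = 0.167).

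Markers of myelinated sensory neurons were, like Kcna1 and Kcna2, higher in the Sst pools. Of 9 such markers, 8 were called higher by edgeR (2.08% of all genes were) and 0 lower (2.09% were), with a median log2 fold change of 2.94. Of the 8, Runx3 passed the filter on low counts only through its Sst values, so it could only be called higher. All 9 markers had an unadjusted p under 0.05 in edgeR, as had 16.3% of all genes. Called higher were 5 with the Xist term (2.27% of all genes were called in either direction) and 5 among the 6 pools with Xist counts (1.73%). The summed level of these markers was 8380 to 14386 CPM in the Sst pools, lowest in Sst pool 4, and 5437 to 6533 CPM in the Trpv1 pools, where Runx3 was at 0 throughout. Its largest parts were Nefl (means of 5077 CPM in the Sst pools and 3306 in the Trpv1 pools) and Nefm (4188 and 2167). Within the groups the sum was highest in Sst pool 3 and Trpv1 pool 1, and Kcna1 in Sst pool 1 and Trpv1 pool 3. Kcna2 was highest in Sst pool 3 and Trpv1 pool 3. The sum, Kcna1 and Kcna2 were each lowest in Sst pool 4 and in Trpv1 pool 4. Of 9 markers of unmyelinated nociceptors, 3 were called lower (2.09% of all genes were), the peptide genes Calca and Tac1 and the receptor gene Ret. Of the same 9, 0 were called higher (2.08% of all genes were), although Nppb (log2 fold change 1.16) and Sst (1.07) had the opposite sign. The list summed to 1577 to 2660 CPM in the Sst pools, highest in Sst pool 4, and to 3384 to 4919 CPM in the Trpv1 pools. The part of these neuron types in the Kv1 results was not tested.

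Markers of other cells were not called by edgeR, DESeq2 or voom among the 6 Schwann cell, 5 satellite glia, 3 endothelial and 6 fibroblast genes tested, of which 1, 2, 0 and 0 had an unadjusted p under 0.05 in edgeR. Over all genes, 4.17% were called by edgeR and 16.3% had an unadjusted p under 0.05. Sst pool 4 had the highest sum of the Sst pools for Schwann cells (675 CPM, others 377 to 513), satellite glia (760 CPM, others 370 to 453) and fibroblasts (437 CPM, others 56.4 to 75.3). None of 8 macrophage and T cell genes passed the filter on low counts, and the list summed to 0 to 3.89 CPM in the Sst pools against 0.637 to 24.9 CPM in the Trpv1 pools, highest in Trpv1 pools 1 (13.1 CPM) and 2. Of this list Cd3e, Cd3g and C1qa were at 0 in all 8 pools. The part of these other cells in the Kv1 values was not tested.

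Kcna4 averaged less in the Sst pools without passing the threshold. It lies on the plus strand of chromosome 2 (107290639 to 107298502). It stood at 31.9, 40.3, 27.2 and 8.16 CPM in Sst pools 1 to 4, against 50.7, 91.1, 66.9 and 30 CPM in Trpv1 pools 1 to 4. Trpv1 pool 4 was the one Trpv1 pool within the range of the Sst pools. Kcna4 averaged 26.9 ± 13.6 CPM in the Sst pools against 59.7 ± 25.8 CPM in the Trpv1 pools (SD, n = 4 each; log2 fold change -1.15, SE 0.464, adjusted p = 0.211, edgeR). The 95% interval of the log2 fold change, not adjusted for the number of genes tested, was -2.29 to -0.02.

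Kcna6 had close means in both populations. It lies on the minus strand of chromosome 6 (126708329 to 126740674), near Kcna1. It stood at 58.4, 71.6, 60.1 and 109 CPM in Sst pools 1 to 4, against 83.8, 86.3, 55.1 and 60.5 CPM in Trpv1 pools 1 to 4. The ranges overlapped, and the highest value was in Sst pool 4, which had the lowest Kcna1, Kcna2 and Kcna4 of the Sst pools. The log2 fold change was 0.07 (SE 0.295, adjusted p = 0.946, edgeR), with a 95% interval of -0.65 to 0.79. The sign turned without Sst pool 4 (-0.17), without Trpv1 pool 3 (-0.04) and under voom (-0.11). Part of Kcna6 lies opposite the antisense gene Gm26673, and reads of the 2 genes cannot be told apart there without strand. This part holds 38.8% of the 50-base words of Kcna6, and its levels per kilobase below use the whole exon length. Exons of Kcnab1 and Kcnab2 also overlap other genes, with 0.816% and 1.33% of their words shared. Gm26673 had 6, 0, 0 and 6 counts in Sst pools 1 to 4, against 0, 0, 1 and 0 in Trpv1 pools 1 to 4.

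Kcna3 had 2 counts in Sst pool 1 and 0 in the other pools, so it was not tested. Over the 4 Trpv1 pools a count of 0 allows up to 0.0854 CPM. It lies on the plus strand of chromosome 3 (107036169 to 107038070).

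**Figure D1:**
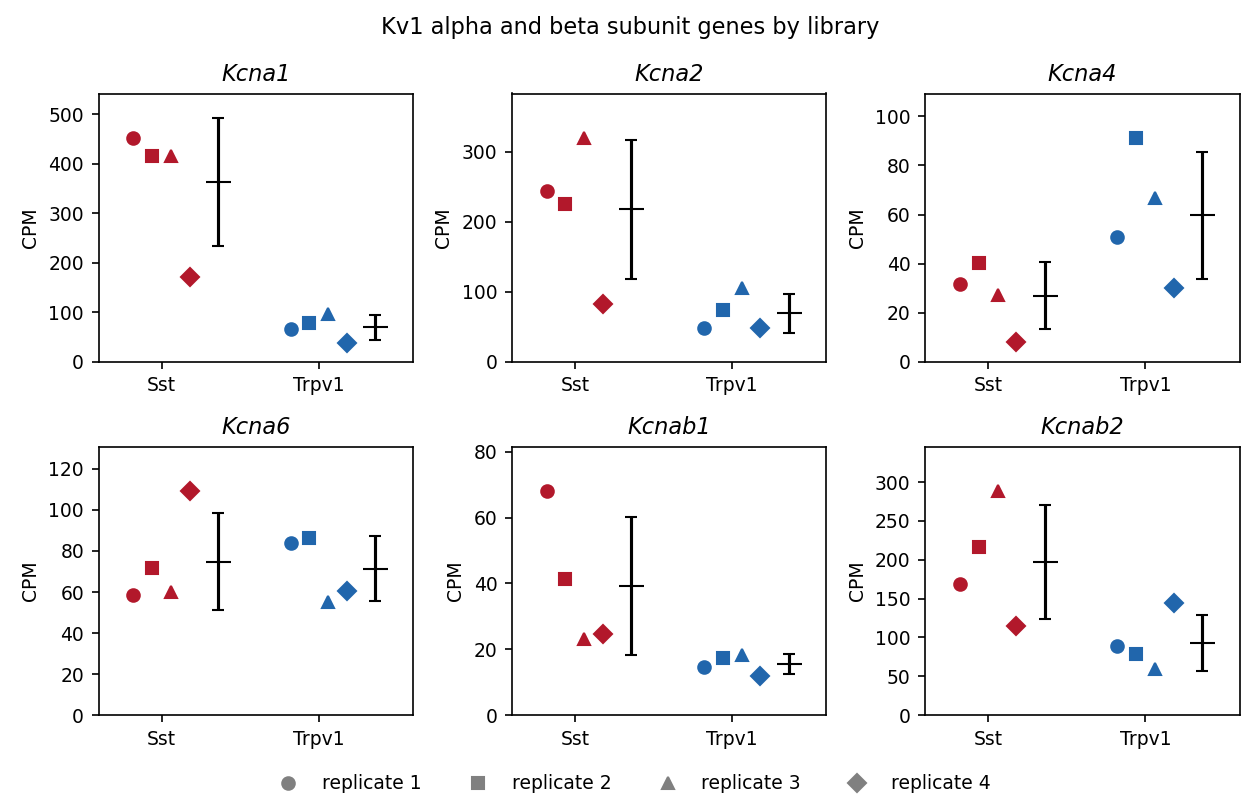
CPM (y axis, from 0, a scale per panel) of the 6 tested members in the Sst pools, left, and the Trpv1 pools, right. Each point is a pool, its shape gives the replicate number, and bars are the mean ± SD (n = 4). Kcna1 and Kcnab1 do not overlap between the groups, and Sst pool 4 (diamond) is the lowest Sst pool for Kcna1, Kcna2 and Kcna4 and the highest for Kcna6.

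Neither beta subunit gene passed the threshold, although both averaged more in the Sst pools. Kcnab2 spans 152390742 to 152477871 on the minus strand of chromosome 4. It stood at 169, 217, 288 and 115 CPM in Sst pools 1 to 4, against 89, 78.8, 58.9 and 144 CPM in Trpv1 pools 1 to 4. Sst pool 4 was below Trpv1 pool 4, and all other Sst pools were above all Trpv1 pools. Kcnab2 averaged 197 ± 73.5 CPM in the Sst pools against 92.7 ± 36.5 CPM in the Trpv1 pools (SD, n = 4 each; log2 fold change 1.09, SE 0.312, adjusted p = 0.0627, edgeR). It was near the threshold: 7 of 18 alternatives called it, among them edgeR's newer quasi-likelihood method (adjusted p = 0.0301), DESeq2 (0.018), voom (0.0202), and edgeR without Sst pool 4 (0.0221) or without Trpv1 pool 4 (0.0228), and 11 did not, with adjusted p up to 0.32.

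Kcnab1 spans 65109384 to 65378223 on the plus strand of chromosome 3. It stood at 67.9, 41.2, 23.1 and 24.6 CPM in Sst pools 1 to 4, against 14.6, 17.4, 18.4 and 11.9 CPM in Trpv1 pools 1 to 4. The groups did not overlap, and the Sst pools were spread far more widely than the Trpv1 pools. Kcnab1 averaged 39.2 ± 20.8 CPM in the Sst pools against 15.6 ± 2.94 CPM in the Trpv1 pools (SD, n = 4 each; log2 fold change 1.33, SE 0.448, adjusted p = 0.125, edgeR). DESeq2 called it (1.32, adjusted p = 0.0418), and it was called in none of the other 17 alternatives.

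Of the 6 members tested, 2 were called higher in the Sst pools (2.08% of all genes were), 0 lower (2.09% were) and 4 were not called. In either direction edgeR called 493 of 11828 genes (4.17%), and 5 of the 6 members had an unadjusted p under 0.05, as had 16.3% of all genes. These were all but Kcna6, and among them Kcna4 was lower in the Sst pools. The median log2 fold change was 1.21 over the 6 and 0.00 over all genes tested. DESeq2 called 4 members (7.7% of all genes) and voom 3 (5.32%), all higher. The newer quasi-likelihood method called 3 members (6.35% of all genes), and Kcna1 alone was called with the Xist term (2.27% of all genes) and among the 6 pools with Xist counts (1.73%). Groups did not overlap for Kcna1 and Kcnab1, both higher in the Sst pools, whereas 11.1% of all genes tested did not overlap, and 5.43% did not overlap and were higher in the Sst pools. The members took 0.0463 to 0.121% of all counts in the Sst pools, lowest in Sst pool 4, against 0.0332 to 0.0449% in the Trpv1 pools.

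**Figure D2:**
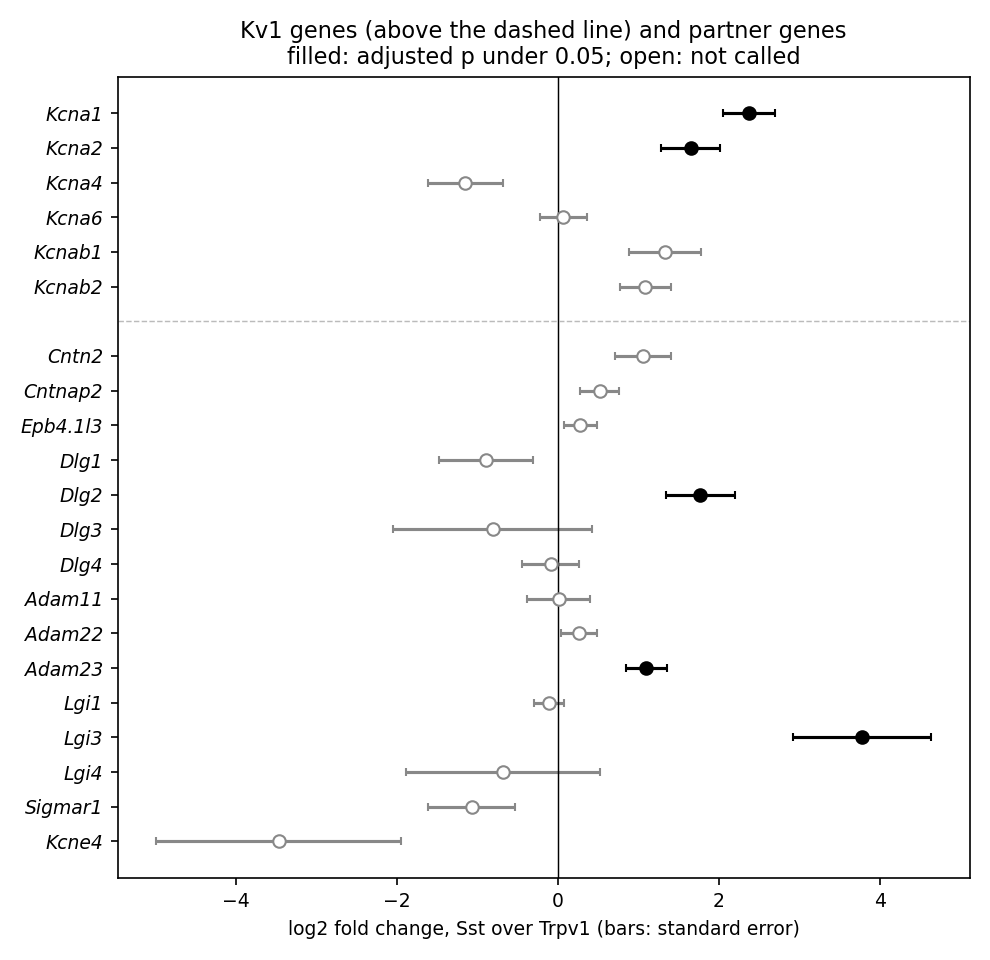
Log2 fold change (x axis, Sst over Trpv1) with its standard error for the 6 tested members, above the dashed line, and the 15 tested partner genes, below it. Filled points had an adjusted p under 0.05 in edgeR: Kcna1 at 2.38 and Kcna2 at 1.65 among the members, and Dlg2, Adam23 and Lgi3 among the partners.

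**Figure D3:**
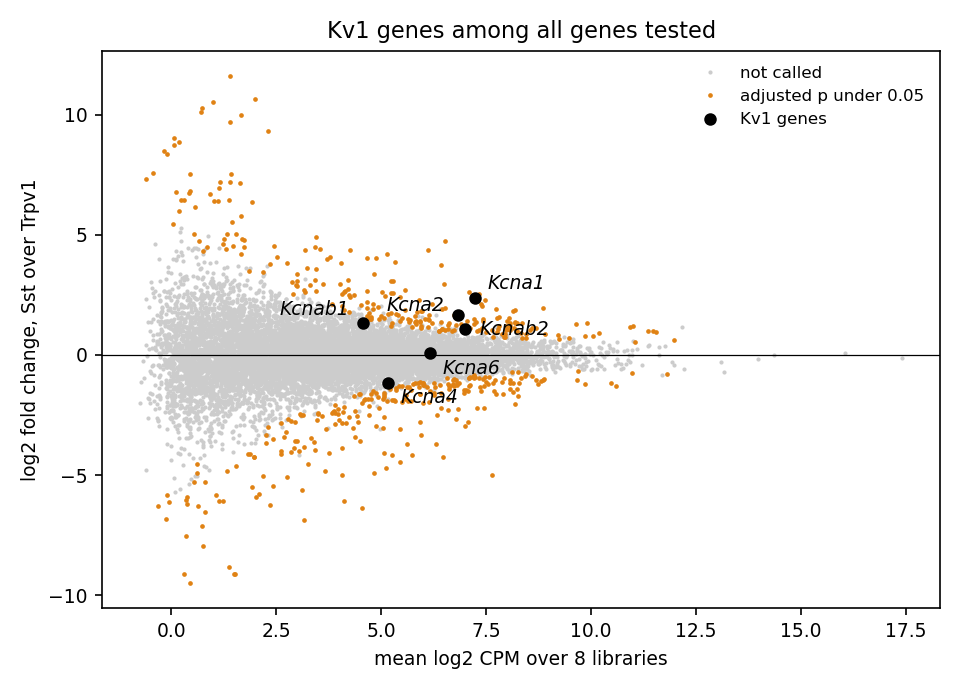
Log2 fold change (y axis, Sst over Trpv1) against mean log2 CPM (x axis) of the 11828 tested genes, with called genes in orange and the 6 tested members in black. Kcna1 lies at the upper edge of the genes of like level, Kcna6 lies near 0, and Kcna4 lies below 0.

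To compare levels between genes, CPM was divided by each gene's summed exon length in kilobases. On this scale Kcna1 had the highest level in each Sst pool, 76.1 ± 27.2 CPM per kilobase in the Sst pools against 14.6 ± 5.29 in the Trpv1 pools (SD, n = 4 each). Kcna2 was at 18.3 ± 8.32 CPM per kilobase in the Sst pools against 5.81 ± 2.29 in the Trpv1 pools. Kcna6 was at 12.6 ± 3.99 CPM per kilobase in the Sst pools against 12 ± 2.68 in the Trpv1 pools, and Kcna4 at 5.56 ± 2.82 in the Sst pools against 12.3 ± 5.34 in the Trpv1 pools. The order in Sst pools 1 to 3 was Kcna1, Kcna2, Kcna6 and Kcna4, and in Sst pool 4 Kcna6 stood above Kcna2. Across the Sst pools the ranges of Kcna2 and Kcna6 overlapped, as did those of Kcna2 and Kcna4, while those of Kcna6 and Kcna4 did not. Within each Sst pool, however, both Kcna2 and Kcna6 were above Kcna4. In the Trpv1 pools Kcna1, Kcna4 and Kcna6 overlapped and changed places from pool to pool, and Kcna2 was below these 3 in each. That place depends on the length used, which is 11906 bases for Kcna2 against 4780 to 5945 for the 3. Before the division Kcna2 averaged 69.2 CPM in the Trpv1 pools, against 69.7 for Kcna1, 59.7 for Kcna4 and 71.4 for Kcna6. Whether reads covered the exons evenly was not tested.

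Shares of the summed alpha level per kilobase show the make-up of the family apart from its total. Kcna1 made up 66.3 ± 6.47% in the Sst pools against 32.1 ± 5.05% in the Trpv1 pools (SD, n = 4 each). Kcna4 made up 4.66 ± 1.62% in the Sst pools against 26.7 ± 5% in the Trpv1 pools. Kcna6 made up 13.5 ± 10.6% in the Sst pools against 28.2 ± 8.22% in the Trpv1 pools. The Kcna1 and Kcna4 shares did not overlap between the groups, and the Kcna6 share did, through Sst pool 4 at 29.3%, against 7.47 to 9.52% in the other Sst pools. The Kcna2 share was 15.5 ± 3.99% in the Sst pools against 13 ± 3.27% in the Trpv1 pools. The shares are descriptions and were not tested.

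**Figure D4:**
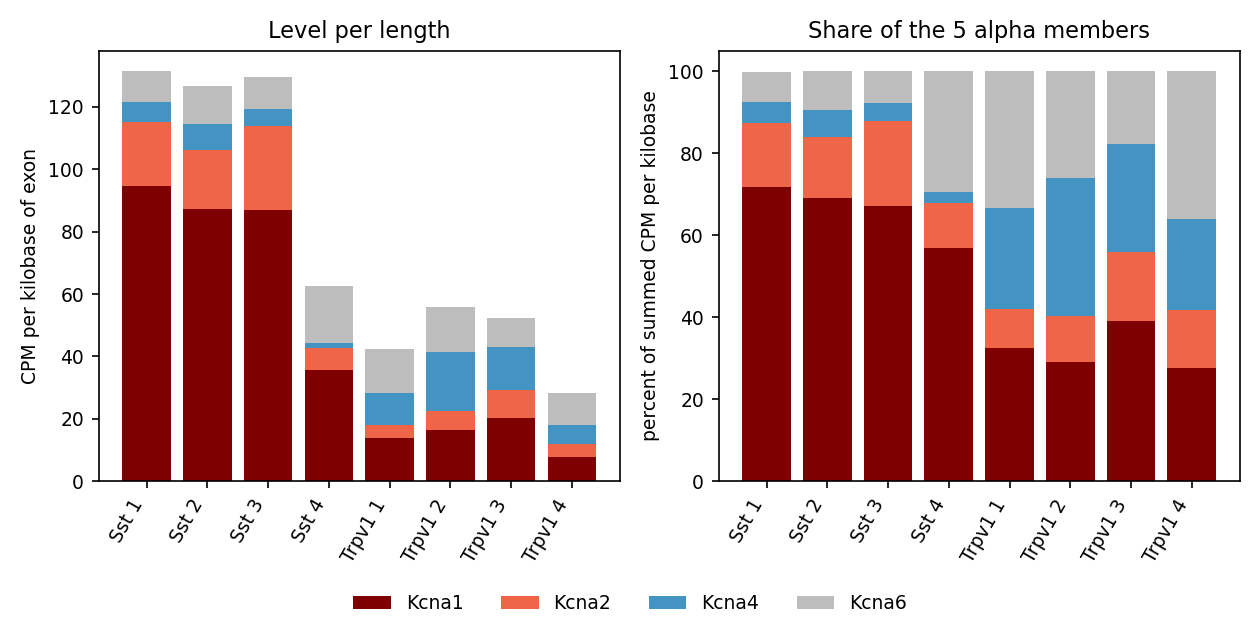
Left, stacked CPM per kilobase of exon of 4 alpha genes in each Sst pool and then each Trpv1 pool. Right, their share of the summed level in percent, where Kcna3, at most 0.0796%, is not drawn: Kcna1 takes 57 to 71.9% in the Sst pools and 27.6 to 39% in the Trpv1 pools, and Kcna4 takes 2.69 to 6.59% in the Sst pools and 22 to 33.7% in the Trpv1 pools.

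Kcnab2 was the main beta transcript in both populations, with 87.8 ± 6.51% of the summed beta level per kilobase in the Sst pools against 89 ± 4.96% in the Trpv1 pools (SD, n = 4 each). The summed alpha level was 112 ± 33.2 CPM per kilobase in the Sst pools against 44.8 ± 12.4 in the Trpv1 pools, without overlap (62.7 to 131 against 28.2 to 55.9). The summed beta level was 39.9 ± 12.8 CPM per kilobase in the Sst pools against 18.4 ± 6.21 in the Trpv1 pools. The ratio of alpha to beta was 2.85 ± 0.453 in the Sst pools against 2.76 ± 1.35 in the Trpv1 pools, where it was spread from 1.04 to 4.13. These sums were not tested.

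A ratio of 2 members within a pool depends on how libraries are scaled only through the 0.5 CPM added to each value. The log2 ratio of Kcna4 to Kcna1 was -3.80, -3.35, -3.91 and -4.31 in Sst pools 1 to 4, against -0.38, 0.22, -0.54 and -0.31 in Trpv1 pools 1 to 4. The groups were far apart, Sst pool 4 included, with a difference of -3.59 (exact two-sided permutation test, p = 0.0286, adjusted over 5 ratios p = 0.0714). The log2 ratio of Kcna4 to Kcna2 was -2.92, -2.46, -3.53 and -3.25 in Sst pools 1 to 4, against 0.06, 0.29, -0.66 and -0.67 in Trpv1 pools 1 to 4. These groups did not overlap either, with a difference of -2.80 (exact permutation p = 0.0286, adjusted p = 0.0714). With 4 pools against 4, 0.0286 is the smallest p that the exact test can give, so no ratio could pass the threshold after this adjustment unless 3 of the 5 reached it.

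The other ratios overlapped between the groups. The log2 ratio of Kcna1 to Kcna2 was 0.38 to 1.05 in the Sst pools against -0.36 to 0.44 in the Trpv1 pools (difference 0.80, exact permutation p = 0.0571, adjusted p = 0.0952). That of Kcna6 to Kcna2 was -2.05, -1.64, -2.40 and 0.41 in Sst pools 1 to 4, against 0.78, 0.21, -0.93 and 0.33 in Trpv1 pools 1 to 4 (difference -1.52, exact permutation p = 0.114, adjusted p = 0.143). Sst pool 4 fell among the Trpv1 pools for this ratio, and the other Sst pools were below all of them. The log2 ratio of Kcnab1 to Kcnab2 was -3.61 to -1.30 in the Sst pools against -3.55 to -1.65 in the Trpv1 pools, with a difference of 0.10 (exact permutation p = 0.83).

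**Figure D5:**
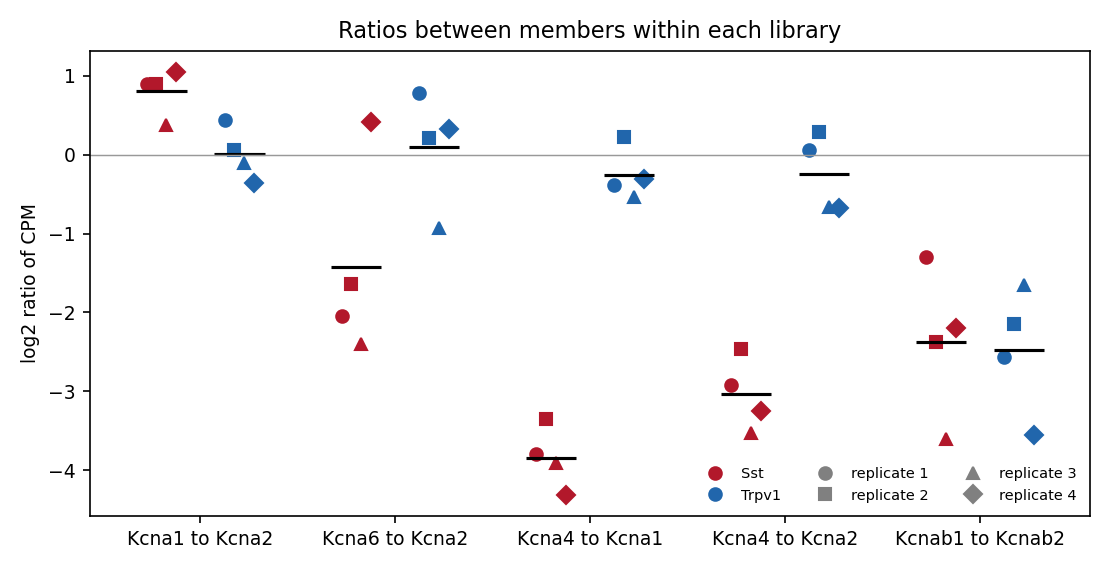
Log2 ratio of CPM (y axis) for 5 pairs of members, with the Sst pools (red) left of the Trpv1 pools (blue) in each pair. Points are pools, shapes give the replicate number and lines are group means. Kcna4 to Kcna1 and Kcna4 to Kcna2 are apart, with differences of -3.59 and -2.80, and Sst pool 4 (diamond) lies among the Trpv1 pools for Kcna6 to Kcna2.

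Other genes of the Kv1 family were scarce, and none of Kcna5, Kcna7, Kcna10 and the beta subunit gene Kcnab3 passed the filter on low counts. Kcnab3 had 107 counts over the Sst pools against 11 over the Trpv1 pools, and Kcna7 had 18 against 0. Kcna5 had 8 counts over the Sst pools against 21 over the Trpv1 pools, and Kcna10 had 2 against 0.

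Kv1 channels are held in the axon membrane and at synapses by partner proteins, among them the adhesion molecules Cntnap2 (Caspr2) and Cntn2 (TAG-1), scaffolds of the Dlg family, and the secreted LGI proteins with their ADAM receptors. Of 15 partner genes tested, 3 were called higher in the Sst pools (2.08% of all genes were), 0 lower (2.09% were) and 12 were not called by edgeR. An unadjusted p under 0.05 was found in edgeR for 5 of the 15, as for 16.3% of all genes. DESeq2 called 4 (7.7% of all genes) and voom 4 (5.32%), all higher. The median log2 fold change of the partner genes was 0.01, close to that of all genes. The calls were unsteady: 0 were made without Sst pool 1 and 0 without Sst pool 3 (edgeR; 4 had an unadjusted p under 0.05 in each). Without Trpv1 pool 3 all 3 were lost as well, and the 1 call made there was Lgi2.

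Dlg2, the scaffold PSD-93, stood at 50.5, 47.4, 78.2 and 26.1 CPM in Sst pools 1 to 4, against 16.3, 19.6, 9.26 and 14.2 CPM in Trpv1 pools 1 to 4 (log2 fold change 1.77, SE 0.429, adjusted p = 0.0263, edgeR). Adam23, an LGI receptor, stood at 306, 210, 335 and 163 CPM in Sst pools 1 to 4, against 135, 138, 116 and 82.6 CPM in Trpv1 pools 1 to 4 (1.10, SE 0.258, adjusted p = 0.0202). Lgi3, a secreted ligand, stood at 24.1, 24, 33 and 9.61 CPM in Sst pools 1 to 4, against 0.207, 4.09, 1.9 and 0.425 CPM in Trpv1 pools 1 to 4 (3.78, SE 0.859, adjusted p = 0.0173). None of the 3 overlapped between the groups, where 11.1% of all genes tested did not. They had been called on these same values, so the lack of overlap adds no support. Lgi3 passed the filter on low counts through its Sst values. Each of the 3 was lowest among the Sst pools in pool 4.

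Cntn2 averaged 187 ± 32.6 CPM in the Sst pools against 89.5 ± 44.6 CPM in the Trpv1 pools (SD, n = 4 each; log2 fold change 1.06, adjusted p = 0.108, edgeR), without overlap. Cntnap2 averaged 152 ± 18.3 CPM in the Sst pools against 106 ± 31.7 CPM in the Trpv1 pools (0.52, adjusted p = 0.311), and Lgi1 averaged 201 ± 18 CPM in the Sst pools against 218 ± 20.2 CPM in the Trpv1 pools (-0.11, adjusted p = 0.848). Lgi2 did not pass the filter on low counts in the fit of all 8 pools. It had 195, 244, 214 and 10 counts in Sst pools 1 to 4, against 2, 0, 3 and 0 in Trpv1 pools 1 to 4. It was tested in 7 alternatives, which it entered only through its Sst counts, and 6 called it higher in the Sst pools. These fits share most of their pools, so their calls are not separate support.

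In rodent ganglia, the transcription factor Mzf1 and the chromatin proteins Dnmt3a, Ehmt2 and Mbd1 are known to act on Kcna2. Of these, 3 were tested and 0 called by edgeR, DESeq2 or voom (4.17% of all genes were called by edgeR), with 0 at an unadjusted p under 0.05 (16.3% of all genes were). The log2 fold change was 0.14 for Dnmt3a (SE 0.476), 0.11 for Ehmt2 (SE 0.698) and 0.43 for Mbd1 (SE 1.04). Mzf1 had 4 counts over the Sst pools against 2 over the Trpv1 pools and was not tested.

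Alpha subunit genes of the other voltage-gated potassium channel families differed in both directions. Of 32 listed, 24 were tested, with 5 called higher in the Sst pools (2.08% of all genes were) and 3 lower (2.09% were). The median log2 fold change of the 24 was 0.76, and 14 had an unadjusted p under 0.05 in edgeR (16.3% of all genes had). Kcnh7, of the Erg group, averaged 1266 ± 202 CPM in the Sst pools against 516 ± 97.7 CPM in the Trpv1 pools (SD, n = 4 each; log2 fold change 1.29, adjusted p = 0.00038, edgeR). Kcnq3, a subunit of the M current, averaged 183 ± 45.6 CPM in the Sst pools against 12.7 ± 11.3 CPM in the Trpv1 pools (3.85, adjusted p = 0.000518). The 3 called lower were Kcnv1, a silent modifier of Kv2 channels (-5.06, adjusted p = 0.000741), Kcnq5, another M current subunit (-3.96, adjusted p = 0.00181), and Kcnh6, of the Erg group (-2.66, adjusted p = 0.0344). Among the 5 called higher was a gene with 408 counts over the Sst pools against 4 over the Trpv1 pools. It passed the filter on low counts only through its Sst values, and Kcnv1 passed it through its Trpv1 values. Whether the Kv1 members differ from these other potassium channel genes was not tested.

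Genes with the profile most like that of a member were found from the root mean square difference of log2 CPM over the 8 pools, each profile centred on its own mean, among 6937 genes. For Kcna1 they were Cntn1 (0.26), a contactin, Sparcl1 (0.35) and Gria3 (0.41), a glutamate receptor subunit, where the median over genes was 1.41. Kcna2 had rank 8 in this order (0.48), Kcnab1 78 (0.74), Kcnab2 363 (0.98), Kcna6 3275 (1.39) and Kcna4 6232 (1.83). For Kcna2 the closest were Thy1 (0.30), Gpr158 (0.35) and Lrrn1 (0.37), and for Kcna4 they were Gfra1 (0.30), a GDNF co-receptor, Msmo1 (0.33) and Spred2 (0.35). For Kcna6 they were Mcm3ap (0.13), Abcc5 (0.14) and Pqlc3 (0.16). For Kcnab1 they were Tusc2 (0.29), Pcyt1b (0.36) and Gyg (0.38), and for Kcnab2 Eno2 (0.17), the neuronal enolase, Ndufb8 (0.23) and Lynx1 (0.25). The values of one pool share its cells and depth, so these are descriptions.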

How the data were processed

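RNA from 8 pools of picked neurons, 4 per Cre line, was sequenced. The authors deposited raw counts per gene symbol, with 1 column per sample. Per the submitters' processing notes, bcl2fastq 2.17, Trimmomatic 0.33 and featureCounts were used, with the build GRCm38. The aligner, annotation, strand setting and handling of multi-mapped reads were not given in the sources used here. Per the labels' protocols, RNA was amplified from small pools (Ovation V2, Nextera XT), which adds spread to genes of low abundance. The labels do not say that pools of a group came from separate litters or days, so p-values measure the spread between these pools.

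Totals were scaled by TMM, and edgeR's filter (minimum count 10) left 11828 of 43372 symbols. The comparison used edgeR 4.0.16 under R 4.3.3: estimateDisp and glmQLFit, robust and otherwise at their defaults, and glmQLFTest, with group as sole term, two-sided, Benjamini-Hochberg over all genes tested, threshold 0.05. Fold changes are Sst over Trpv1. An earlier account of these data called 751 genes, the number that edgeR's newer quasi-likelihood method gives. That method was tried as the main test after both results had been seen and then set back to an alternative, because the written design names no such option. In counts simulated for this comparison, over 11828 genes, the default recovered 7% of 2-fold and 38% of 4-fold changes, with 6 false among 51 calls, and the newer method 8% and 43%, with 12 false among 63. CPM values are TMM-normalized, and exon lengths came from GENCODE M21. Ratios used CPM plus 0.5 and the exact permutation test. The 95% intervals of fold changes used 6 residual degrees of freedom, and the limit of a count of 0 is 3 counts and covers counting error only.

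Alternatives were another normalization, other filters, dispersion without robustness, the newer quasi-likelihood method, DESeq2 1.42.0, voom (limma 3.58.1), a replicate block, a term for Xist, the 6 pools with Xist counts, and leaving out each pool. The members and lists were chosen with earlier results of these data known. Named genes were the members, the listed partners and regulators, the 3 other potassium channel genes called with the smallest p in each direction, of which 1 is not reported here, and the 3 genes closest to each member. Over the 12 pairs within groups, chi-square per degree of freedom was 40 to 100, so no pair agreed within counting error.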

Additional observations from a re-analysis of the deposited data

Results flagged for a closer look

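Among 36 groups of 4 pools, 4 held a pool far from the others, where chance gives about 1 in 20 groups. The 2 Kcna3 cases below are bound to stand out, since 3 of their 4 values are 0, and both rest on the same counts. The other 2 cases are both in Sst pool 4 and are linked, since the Kcna6 share is part of a sum that holds Kcna1. The 36 groups reuse the same values in CPM, shares and ratios, so the number of cases cannot be set against chance. Kcna1 was at 171 CPM in Sst pool 4, below the 416 to 452 CPM of the other Sst pools. Kcna6 made up 29.3% of the summed alpha level in Sst pool 4, above the 7.47 to 9.52% of the other Sst pools. Kcna3 stood at 0.199 CPM in Sst pool 1, from 2 counts, and so at 0.0796% of the alpha level, against 0 in the other Sst pools.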

How the results depend on the processing

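Genes called numbered 493, and 902 by DESeq2, 751 by edgeR's newer quasi-likelihood method, 268 with the Xist term, 230 among the 6 pools with Xist counts, and 306 to 503 without 1 pool. Members called numbered 2, and 4 by DESeq2, 1 with the Xist term, 1 among the 6 pools, and 1 to 3 without 1 pool. Of the partner genes 3 were called, and 5 without a filter on low counts, 1 with the Xist term, 1 among the 6 pools, and 0 to 4 without 1 pool. Of the other voltage-gated potassium channel genes 8 were called, and 13 by the newer method, 5 with the Xist term, and 6 to 11 without 1 pool. Of the 9 myelinated sensory neuron markers 8 were called, and 5 with the Xist term, 5 among the 6 pools, and 6 to 8 without 1 pool. The log2 fold change of Kcna6, 0.07, turned to -0.11 under voom and lay between -0.17 and 0.19 without 1 pool. The cause of these shifts was not tested, and fewer pools were in the fits that left pools out. Kcna1 was called in all 18 alternatives and Kcna4 in none. The 5 ratios kept their direction at a pseudocount of 2 CPM and without any 1 pool, except Kcnab1 to Kcnab2 (-0.25 to 0.52). With the replicate number as a block, 398 genes and 2 members were called, Kcna1 and Kcna2. The numbers did not pair the pools: deviations of same-numbered pools correlated at -0.030 to 0.032, and 1 of 4 Sst pools correlated best with its own number. At this depth and spread, 7% of simulated 2-fold changes were recovered, in genes drawn at random from all those tested. The tested members lay between percentiles 62.5 and 92.6 of mean level, so this share is not that of the members. A member that was not called may still differ.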
